A study of Mus musculus with 6 samples.

Results

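Chemokines are small secreted proteins that steer the migration of cells, and the 8 genes described here are the members of the family Ccl2, Ccl7, Ccl11, Cxcl1, Cxcl2, Cxcl10, Cxcl12 and Cxcl14 in sorted mouse muscle stem cells. They were chosen by gene symbol, with earlier results of these data known. All 8 were found among the 12067 genes of the expression table. Muscle stem cells of male C57BL/6 mice had been isolated from limb muscle by cell sorting (CD45-, CD31-, Sca1-, VCAM+), stained at 5 uM with ThiolTracker Violet, whose fluorescence follows the content of reduced glutathione (GSH), and resorted on it. The old GSH-low and old GSH-high cells were the separated fractions of 23-month-old animals, with 2 animals pooled in each library. The young cells came from 4-month-old animals, 1 per library, and all stained cells were kept, nearly all of them GSH-high according to the study's design. Each of the 3 groups has 2 libraries, made from snap-frozen cells with oligo(dT) priming and read as single 150-base ends. No library of unsplit old cells or of young GSH-low cells was analysed here, so that the comparisons with young cells set a fraction of the old cells against a whole population. The labels do not say whether the old GSH-low and GSH-high libraries share animals.

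Chemokines bind G-protein-coupled receptors on the cells they attract and are held on the heparan sulphate of cell surfaces and matrix. Resting muscle stem cells, also called satellite cells, lie beside the muscle fibre, and after injury chemokines released in the muscle bring in neutrophils and then monocytes. Many chemokine genes are switched on within hours by NF-kappa B, AP-1, STAT and interferon regulatory factors and their mRNAs are short-lived, and enzymatic release of cells from tissue is itself known to induce immediate-early genes. Whether the sorting of these cells moved the chemokine levels was not tested.

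Levels are RPKM, that is reads per kilobase of exon and per M reads assigned to genes, after the authors' scaling of library size, which can be compared between genes. Reads recovered from these values summed to 50.7 M and 47.0 M in the old GSH-low libraries, 68.8 M and 60.8 M in the old GSH-high libraries and 63.1 M and 60.05 M in the young libraries, and the 8 chemokines together took 0.349% to 0.496% of them. The smallest number of reads behind any of their values was 997, for Cxcl14 in a young library. For Ccl11 in young cells, with 1200 and 1112 reads, the libraries differed by no more than counting alone can give. Summed over the satellite cell markers, levels were 2775 to 2949 RPKM in old GSH-low cells, 3203 to 3372 RPKM in old GSH-high cells and 3436 to 3607 RPKM in young cells. Most of each sum came from Sdc4, a heparan sulphate proteoglycan, and Myod1, a myogenic transcription factor. Pax7, the defining transcription factor of satellite cells, had 11.2 and 12.6 RPKM in old GSH-low cells, 8.09 and 8.65 RPKM in old GSH-high cells and 7.93 and 7.64 RPKM in young cells. Pax7 thus did not follow the sum. It was called higher in old GSH-low cells than in young cells (limma adjusted p = 0.00206) and than in old GSH-high cells (limma adjusted p = 0.0225). The second call ended when any of the 4 old libraries was omitted (adjusted p = 0.0548 to 0.202). In bulk samples, fewer cells of a type and less RNA per cell cannot be told apart.

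The chemokines of these cells were dominated by Cxcl1, and the old cells differed from young cells in the rest of the mixture. Ccl11, Ccl7, Cxcl12 and Cxcl14 were higher in both old fractions than in young cells, whereas Ccl2, Cxcl1 and Cxcl2 did not pass the test in any of the 3 comparisons. Cxcl10 was the only one of the 8 that was lower in an old fraction, the GSH-high one, and higher in the other. The GSH-low fraction was higher than the GSH-high fraction in Ccl7, Ccl11, Cxcl10 and Cxcl12.

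Under a limma fit over all genes tested, with Benjamini-Hochberg adjusted p under 0.05 as the threshold, 4 of the 8 were higher and 0 lower in old GSH-low cells relative to old GSH-high cells, where 5.38% of all 10609 genes tested were called, 3.69% as higher and 1.69% as lower. In old GSH-high cells, 4 were higher and 1 was lower than in young cells, beside 28.8% of all genes called, 15.1% as higher and 13.7% as lower. In old GSH-low cells, 5 were higher and 0 lower than in young cells, beside 36.8% of all genes called, 18.1% as higher and 18.7% as lower. The median log2 difference over the 8 genes was 0.46, 0.33 and 0.61 in these comparisons, in the same order, beside -0.011, -0.0037 and -0.021 over all genes tested. The 3 comparisons share libraries, so their counts are not independent of one another. When old GSH-high replicate 2 was omitted, and likewise when GSH-low replicate 1 was, 2 of the 8 were called between the old fractions.

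**Figure D1:**
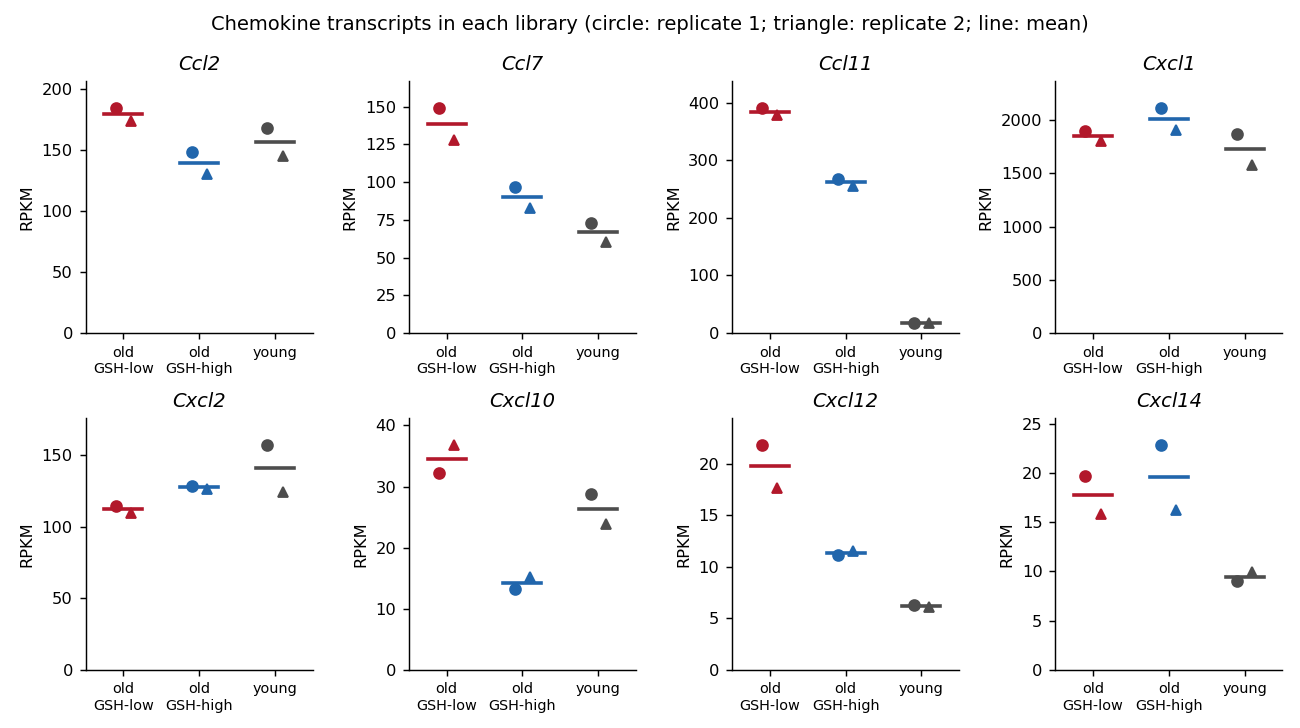
RPKM (vertical axes, each starting at 0) of the 8 chemokine genes in each of the 6 libraries, with old GSH-low, old GSH-high and young cells from left to right; circles are replicate 1, triangles replicate 2 and lines the mean of 2 libraries. Ccl11 stood at 378 to 391 RPKM in old GSH-low cells, 255 to 268 RPKM in old GSH-high cells and 17.5 to 18.2 RPKM in young cells, while Cxcl1 lay between 1575 and 2114 RPKM in all libraries.

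**Figure D2:**
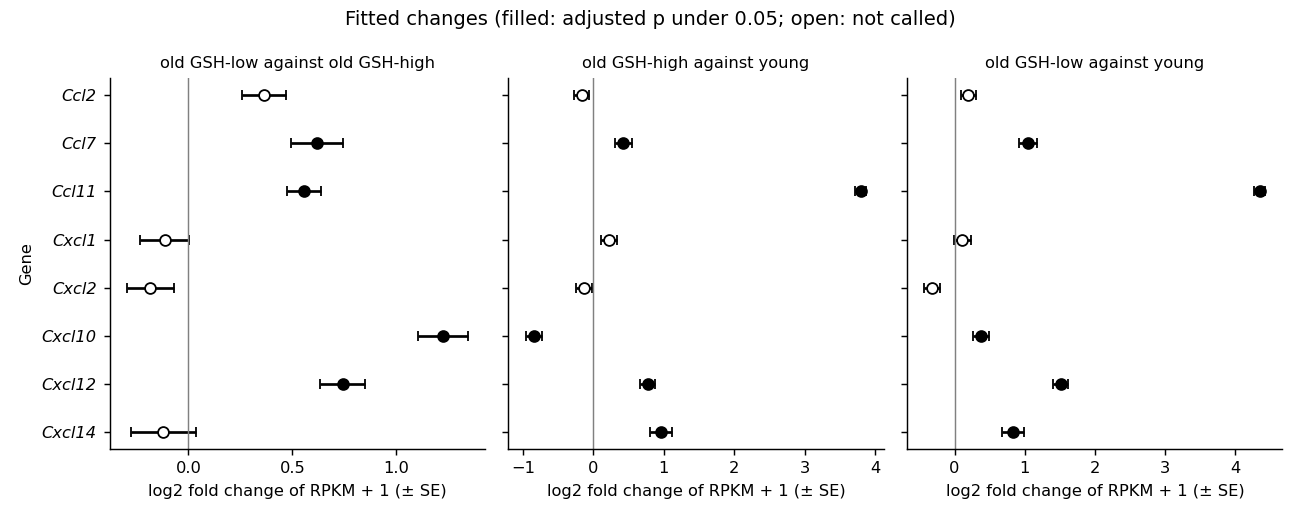
Fitted log2 fold changes of RPKM + 1 with their standard errors (horizontal axes, a different range in each panel) for the 8 chemokine genes in the 3 comparisons; filled points have an adjusted p under 0.05. Cxcl10 lies at 1.22 between the old fractions and at -0.84 for old GSH-high against young cells, and Ccl11 lies at 3.80 and 4.35 in the comparisons with young cells.

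Ccl2 and Ccl7 are monocyte chemoattractants that act through the receptor CCR2, and Ccl11 is eotaxin, which attracts eosinophils through CCR3. Their genes lie side by side on chromosome 11 of GRCm38, all on the + strand: Ccl2 at 82035571 to 82037453, Ccl7 at 82045712 to 82047525 and Ccl11 at 82057823 to 82062955. The gaps between them are 8.258 kb and 10.297 kb. Ccl2 overlaps the predicted gene Gm17268 on the other strand, which was not analysed here, and whether the reads were counted by strand is not given in the sources used here.

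Ccl11 had 391 and 378 RPKM in old GSH-low cells, 268 and 255 RPKM in old GSH-high cells and 18.2 and 17.5 RPKM in young cells. The 3 groups did not overlap, and the libraries of each group lay within a few percent of each other. The ratio of mean levels was 21.5 for old GSH-low against young cells and 14.6 for old GSH-high against young cells. On the log2 scale, the difference was 4.35 ± 0.08 for old GSH-low against young cells (SE; limma adjusted p = 2.40e-08) and 3.80 ± 0.08 for old GSH-high against young cells (limma adjusted p = 1.14e-07), the widest among the 8 genes in both comparisons. Between the old fractions the GSH-low cells were higher by 0.55 ± 0.08 (limma adjusted p = 0.00423). This call ended with replicate 2 of the GSH-high fraction omitted (adjusted p = 0.0727) and with replicate 1 of the GSH-low fraction omitted (adjusted p = 0.0548), while the fitted difference stayed between 0.52 and 0.59 over the fits with 1 library left out.

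Ccl7, the neighbour between Ccl2 and Ccl11, had 149 and 128 RPKM in old GSH-low cells, 96.9 and 82.8 RPKM in old GSH-high cells and 72.9 and 60.3 RPKM in young cells. Its groups did not overlap and stood in the same order as those of Ccl11, in smaller steps. Ccl7 was higher by 1.05 ± 0.13 in old GSH-low than in young cells (SE; limma adjusted p = 3.38e-04), with a ratio of mean levels of 2.08. It was higher by 0.62 ± 0.13 in GSH-low than in GSH-high old cells (limma adjusted p = 0.0239) and by 0.43 ± 0.13 in old GSH-high than in young cells (limma adjusted p = 0.0335). Both of these smaller calls were lost in some fits with 1 library omitted, although the fitted differences stayed between 0.51 and 0.73 for the first and between 0.29 and 0.56 for the second. The first was no longer called when replicate 2 of the GSH-high fraction (adjusted p = 0.208) or replicate 1 of the GSH-low fraction (adjusted p = 0.183) was omitted, and the second when replicate 1 of the GSH-high fraction (adjusted p = 0.233) or young replicate 2 (adjusted p = 0.104) was omitted.

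Ccl2, at the end of the row, had 185 and 174 RPKM in old GSH-low cells, 148 and 131 RPKM in old GSH-high cells and 168 and 145 RPKM in young cells. Young and old GSH-high libraries overlapped, and both old GSH-low libraries lay above all others. The difference between old GSH-low and old GSH-high cells was 0.36 ± 0.10 (SE; limma adjusted p = 0.0944), with a 95% interval of 0.13 to 0.60. It passed the threshold when either young library was left out (adjusted p = 0.0353 without replicate 1 and 0.0354 without replicate 2) or when the 4 old libraries were fitted alone (adjusted p = 0.0362). Against young cells the difference was 0.20 ± 0.10 for old GSH-low cells (limma adjusted p = 0.172; 95% interval -0.041 to 0.44) and -0.17 ± 0.10 for old GSH-high cells (limma adjusted p = 0.267; interval -0.41 to 0.072). These intervals exclude a doubling of Ccl2, that is a difference of 1, in either fraction. Without young replicate 1, the difference of old GSH-low from young cells passed (adjusted p = 0.0497).

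Ccl8, a ligand of CCR8 in the mouse, is the next measured chemokine gene along the chromosome after Ccl11. It was low, with 2.21 and 2.80 RPKM in old GSH-low cells, 7.61 and 4.30 RPKM in old GSH-high cells and 0.580 and 0.2998 RPKM in young cells, the last from 18 and 9 reads. It was higher by 1.29 in old GSH-low cells and by 2.24 in old GSH-high cells than in young cells (limma adjusted p = 0.00187 and 1.26e-04), and lower in GSH-low than in GSH-high cells by a log2 difference of -0.95 (limma adjusted p = 0.0351). The order of the old fractions was thus the opposite of that of its 3 neighbours, although that last call ended under 5 of the alternatives, with adjusted p between 0.0703 and 0.201.

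**Figure D3:**
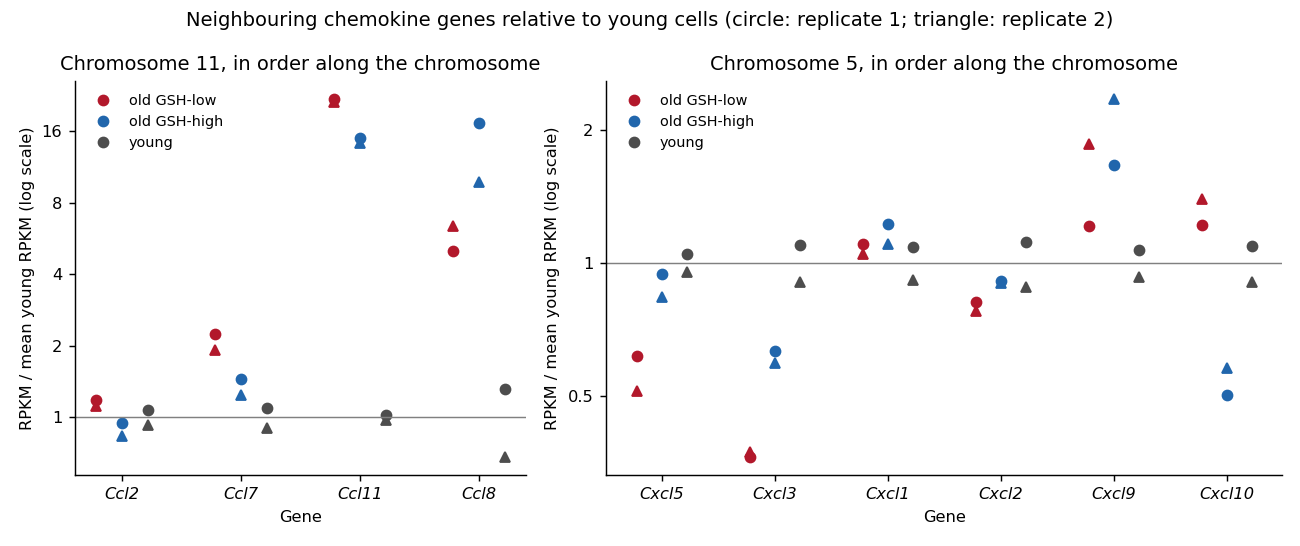
RPKM of neighbouring chemokine genes in each library, divided by the mean of the 2 young libraries (vertical axes, log scales), in their order along chromosomes 11 and 5; circles are replicate 1 and triangles replicate 2. Along chromosome 11 the old GSH-low libraries reach 21.2 and 21.9 times the young mean at Ccl11 and 1.11 and 1.18 times at Ccl2, and along chromosome 5 they stand at 0.363 and 0.372 times the young mean at Cxcl3 and at 1.05 and 1.10 times at Cxcl1.

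Cxcl1 and Cxcl2 attract neutrophils through the receptor CXCR2. They lie on the + strand of chromosome 5 of GRCm38, Cxcl1 at 90891241 to 90893115 and Cxcl2 at 90903871 to 90905938, with a gap of 10.755 kb. Of the exon sequence of Cxcl2, 5.84% of 50-base windows and 0.339% of 150-base windows also occur in another gene, and none did for the other 7 chemokines, so that a small part of the Cxcl2 reads may be uncertain. The promoters of Cxcl1, Cxcl2 and Cxcl3, another CXCR2 ligand of the same gene row, are shown because these neighbours did not have the same course across the groups. Each is the 250 bases before the start of the gene in RefSeq (GRCm38.p6), from which the match positions are counted. The gene positions given above are those of GENCODE M21, where Cxcl1 and Cxcl2 start earlier, so both windows run past those starts. Capitals mark matches to an NF-kappa B motif, GGGNNNTTCC on either strand.
Cxcl1, chr5:90890995-90891244, + strand: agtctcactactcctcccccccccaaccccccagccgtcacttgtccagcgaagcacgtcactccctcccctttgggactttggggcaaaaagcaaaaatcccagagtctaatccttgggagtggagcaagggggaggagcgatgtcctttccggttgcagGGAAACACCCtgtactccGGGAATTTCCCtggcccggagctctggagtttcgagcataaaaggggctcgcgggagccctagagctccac
Cxcl2, chr5:90903649-90903898, + strand: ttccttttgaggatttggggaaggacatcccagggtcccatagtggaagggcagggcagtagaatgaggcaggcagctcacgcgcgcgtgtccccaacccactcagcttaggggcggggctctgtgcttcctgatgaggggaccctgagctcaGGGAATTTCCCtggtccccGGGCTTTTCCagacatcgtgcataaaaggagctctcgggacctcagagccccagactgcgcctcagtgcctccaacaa
Cxcl3, chr5:90785851-90786100, + strand: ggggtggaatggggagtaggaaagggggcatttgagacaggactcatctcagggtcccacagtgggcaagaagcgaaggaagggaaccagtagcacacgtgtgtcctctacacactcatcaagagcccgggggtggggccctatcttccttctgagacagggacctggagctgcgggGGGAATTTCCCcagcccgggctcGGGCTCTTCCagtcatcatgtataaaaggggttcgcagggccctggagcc
All 3 hold the same 11 letters, GGGAATTTCCC, at -71 to -61 before the start of Cxcl1, -97 to -87 before Cxcl2 and -73 to -63 before Cxcl3. These letters occur in 12 of the 32851 RefSeq promoters of this length (0.0365%), and an NF-kappa B match of any kind in 4.65% of them. Of the 13 other chemokine genes with a promoter in the table, Cxcl3 is the 1 with such a match. A match describes the letters in this window and says nothing of whether a factor was bound.

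Cxcl1 was the most abundant of the 8 in every library, with 1901 and 1808 RPKM in old GSH-low cells, 2114 and 1907 RPKM in old GSH-high cells and 1873 and 1575 RPKM in young cells. Its rank among all genes by RPKM was 3 and 5 in the old GSH-low libraries, 3 in both old GSH-high libraries and 10 in both young libraries. Its share of the summed level of the 8 chemokines was 67.6% and 67.8% in old GSH-low cells, 75.4% and 74.9% in old GSH-high cells and 80.3% in each young library. No difference passed the test. The differences were -0.11 ± 0.12 for old GSH-low against old GSH-high cells (SE; limma adjusted p = 0.660; 95% interval -0.38 to 0.15), 0.22 ± 0.12 for old GSH-high against young cells (adjusted p = 0.187; interval -0.045 to 0.49) and 0.11 ± 0.12 for old GSH-low against young cells (adjusted p = 0.493; interval -0.16 to 0.38). Each interval excludes a doubling. The young libraries spread most, and without young replicate 1 the difference of old GSH-high from young cells passed (adjusted p = 0.0437).

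Cxcl2 had 115 and 110 RPKM in old GSH-low cells, 128 and 127 RPKM in old GSH-high cells and 157 and 124 RPKM in young cells. The old GSH-low libraries were the lowest, and the young libraries lay on both sides of the old GSH-high ones. The difference was -0.18 ± 0.11 between the old fractions (SE; limma adjusted p = 0.425), -0.13 ± 0.11 for old GSH-high against young cells (limma adjusted p = 0.421) and -0.32 ± 0.11 for old GSH-low against young cells (limma adjusted p = 0.0581; 95% interval -0.57 to -0.056). The last of these passed with limma-voom on recovered reads (adjusted p = 0.0408), with a replicate block in which the young numbers were crossed, chosen after seeing the data (adjusted p = 0.0364), and without young replicate 2 (difference -0.48, adjusted p = 0.00278), and without that library old GSH-high cells passed as lower too (difference -0.30, adjusted p = 0.0214).

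Cxcl3 had 33.8 and 34.6 RPKM in old GSH-low cells, 58.6 and 55.1 RPKM in old GSH-high cells and 102 and 84.0 RPKM in young cells, with no overlap. It was lower in old GSH-low than in young cells by a log2 difference of -1.41 ± 0.10 (SE; limma adjusted p = 2.03e-05), in old GSH-high than in young cells by -0.69 ± 0.10 (limma adjusted p = 0.00145) and in the GSH-low than in the GSH-high fraction by -0.72 ± 0.10 (limma adjusted p = 0.00398). Cxcl5, a further CXCR2 ligand in the same row, had 57.9 and 48.16 RPKM in old GSH-low cells, 88.6 and 78.6 RPKM in old GSH-high cells and 98.3 and 89.5 RPKM in young cells. It was lower in old GSH-low than in young cells by -0.82 ± 0.11 (limma adjusted p = 6.87e-04). It was also lower in GSH-low than in GSH-high old cells, by -0.65 ± 0.11 (limma adjusted p = 0.00982), a call that ended with replicate 1 of the GSH-high fraction (adjusted p = 0.101) or replicate 2 of the GSH-low fraction (adjusted p = 0.0883) omitted. The less abundant CXCR2 ligands were thus lower in old GSH-low cells, whereas Cxcl1 and Cxcl2 did not pass. The difference between these genes was not tested.

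Cxcl10 is an interferon-inducible chemokine that attracts activated T cells through CXCR3. Its gene lies on the - strand of chromosome 5 at 92346638 to 92348889 and overlaps Art3 on the + strand. Its promoter is shown because it holds letters of 3 of the motifs searched. Capitals mark, from left to right, an interferon-stimulated response element (ISRE, GAAANNGAAA, at -213 to -204), NF-kappa B matches at -159 to -150 and -104 to -95, and an AP-1 match (TGANTCA, at -74 to -68).
Cxcl10, chr5:92348890-92349139, - strand: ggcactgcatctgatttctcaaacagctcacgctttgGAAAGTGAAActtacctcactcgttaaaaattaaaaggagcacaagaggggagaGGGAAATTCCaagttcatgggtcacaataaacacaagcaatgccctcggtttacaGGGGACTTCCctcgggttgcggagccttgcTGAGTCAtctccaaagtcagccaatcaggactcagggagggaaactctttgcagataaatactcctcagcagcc
The ISRE letters were found in 2.98% and the AP-1 letters in 6.75% of RefSeq promoters of this length, both strands searched.

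Cxcl10 had 32.1 and 36.8 RPKM in old GSH-low cells, 13.2 and 15.2 RPKM in old GSH-high cells and 28.8 and 23.9 RPKM in young cells. The groups did not overlap, with the old GSH-high libraries at the bottom and the young libraries close under the old GSH-low ones. It was higher by 1.22 ± 0.12 in GSH-low than in GSH-high old cells (SE; limma adjusted p = 4.27e-04), a ratio of mean levels of 2.43, and lower by a log2 difference of -0.84 ± 0.12 in old GSH-high than in young cells (limma adjusted p = 0.00107). Both calls held in all fits with 1 library left out. The excess of old GSH-low over young cells was 0.38 ± 0.12 (limma adjusted p = 0.0347). That call ended when young replicate 2 (adjusted p = 0.126) or GSH-low replicate 1 (adjusted p = 0.0575) or 2 (adjusted p = 0.194) was omitted, and when the replicate number was a block in the fit (adjusted p = 0.0578). Art3, whose reads could not be told apart from those of Cxcl10 where the genes overlap if strand was not used, stood at 4.87 and 4.43 RPKM in old GSH-low cells, 3.22 and 3.53 RPKM in old GSH-high cells and 2.76 and 2.14 RPKM in young cells, below Cxcl10 in every library.

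Cxcl12, the ligand of CXCR4 and of the scavenging receptor ACKR3, keeps haematopoietic stem cells in the bone marrow and guides muscle precursors in development. Its gene lies on the + strand of chromosome 6 at 117168535 to 117181367. It had 21.8 and 17.6 RPKM in old GSH-low cells, 11.1 and 11.5 RPKM in old GSH-high cells and 6.31 and 6.10 RPKM in young cells. The groups stood apart in evenly spaced steps. It was higher by 1.52 ± 0.11 in old GSH-low than in young cells (SE; limma adjusted p = 1.67e-05), a ratio of mean levels of 3.18. It was higher by 0.77 ± 0.11 in old GSH-high than in young cells (limma adjusted p = 9.78e-04) and by 0.74 ± 0.11 in GSH-low than in GSH-high old cells (limma adjusted p = 0.00398). All 3 calls held when any 1 library was left out.

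Cxcl14, a chemokine made constitutively by many epithelial and stromal cells, lies on the - strand of chromosome 13 at 56288643 to 56296551. It had 19.7 and 15.9 RPKM in old GSH-low cells, 22.9 and 16.3 RPKM in old GSH-high cells and 8.98 and 9.97 RPKM in young cells. Each old library lay above each young one, and the old fractions overlapped. It was higher than in young cells by 0.96 ± 0.16 in old GSH-high cells (SE; limma adjusted p = 0.00245) and by 0.84 ± 0.16 in old GSH-low cells (limma adjusted p = 0.00375). Between the old fractions the difference was -0.12 ± 0.16 (limma adjusted p = 0.734; 95% interval -0.48 to 0.24), and its sign turned when old GSH-high replicate 1 (0.11) or old GSH-low replicate 2 (0.024) was left out. In the RefSeq promoter window, Cxcl14 held an ISRE match and a match to TTCNNNGAA, the GAS motif of STAT factors, and Cxcl12 held a match to none of the 6 motifs searched.

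Ordered by mean level, Cxcl1 came first in all 3 groups. Ccl11 followed at rank 2 in both old fractions and stood at rank 6 in young cells, where Ccl2 and Cxcl2 came next after Cxcl1 with overlapping libraries. At the lower end, Cxcl12 and Cxcl14 overlapped in old GSH-low cells, whereas Cxcl14, Cxcl10 and Cxcl12 followed each other without overlap in old GSH-high cells. The summed level of the 8 genes was 2813 and 2669 RPKM in old GSH-low cells, 2803 and 2545 RPKM in old GSH-high cells and 2334 and 1962 RPKM in young cells, each old library above each young one. Of these sums Ccl11 made up 391 and 378 RPKM, 268 and 255 RPKM, and 18.2 and 17.5 RPKM, in the same order. The separation is thus not one of all 8 genes, and Cxcl1, the largest part, overlapped between old GSH-low and young libraries.

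Among all genes tested, those with the most similar profile over the 6 libraries were found by the root mean square difference of centred log2(RPKM + 1) values. For Ccl11 they were Apod, a lipid-binding secreted protein (0.24), Prg4, the joint lubricant lubricin (0.31), and Dcn, the small matrix proteoglycan decorin (0.35). Apod averaged 136 RPKM in old GSH-low cells, 105 RPKM in old GSH-high cells and 8.32 RPKM in young cells. For Cxcl12 they included Inhba, an activin subunit (0.087), and Naalad2 (0.095). Ccl7 was nearest to H2-DMa, which loads peptides onto MHC class II (0.059), and Cxcl14 to Sult1a1, a sulphotransferase (0.051). Several of these neighbours were low. H2-DMa averaged 1.85 RPKM in old GSH-low cells, 0.815 RPKM in old GSH-high cells and 0.426 RPKM in young cells. Inhba averaged 4.06, 1.88 and 0.549 RPKM and Naalad2 2.83, 1.16 and 0.214 RPKM, in the same order of groups. The added 1 understates fold changes at such levels, so a small distance there does not mean equal fold changes. For Cxcl10 the nearest named genes were the small nucleolar RNA Snord82 (0.17), Rgs2, a regulator of G-protein signalling (0.19), and Cd83, a surface protein of activated immune cells (0.22). The profiles of Cxcl1 and Cxcl2, for which no difference was called, had close neighbours. The nearest was Bag5 for Cxcl1 (0.028) and Lsm2 for Cxcl2 (0.022). Within the 8 genes, Ccl7 and Cxcl12 were nearest to each other (0.22), as were Cxcl1 and Cxcl2 (0.19), whereas no other member came closer to Ccl11 than Cxcl12 at 1.39.

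Of 29 further chemokines, 17 were in the table and 14 were tested. In old GSH-low against old GSH-high cells, 1 was higher and 4 were lower, in old GSH-high against young cells 6 were higher and 2 lower, and in old GSH-low against young cells 5 were higher and 3 lower. The median log2 difference over the 14 was 0.10, 0.048 and 0.19 in these comparisons. Beside the counts of this list and of those that follow, 5.38%, 28.8% and 36.8% of all genes tested were called, in the same order of comparisons. Ccl21a, a lymphocyte-attracting ligand of CCR7, was the 1 higher between the old fractions, with 10.01 and 11.1 RPKM in old GSH-low cells, 1.46 and 1.82 RPKM in old GSH-high cells and 1.99 and 1.06 RPKM in young cells (difference between the old fractions 2.13 ± 0.17, limma adjusted p = 1.49e-04). Near-identical copies of Ccl21 in the mouse genome make its reads uncertain. Cx3cl1, or fractalkine, a membrane-bound chemokine, had 45.1 and 43.8 RPKM in old GSH-low cells, 41.8 and 39.1 RPKM in old GSH-high cells and 17.2 and 19.7 RPKM in young cells. It was higher than in young cells in both old fractions. The difference was 1.23 ± 0.09 in GSH-low and 1.10 ± 0.09 in GSH-high cells (limma adjusted p = 2.28e-05 and 6.66e-05). Ccl11, which had similar levels in young cells, was also higher in both, by wider differences. Ccl5, an attractant of T cells, was lower than in young cells, with 3.55 and 4.02 RPKM in old GSH-low cells, 3.01 and 2.37 RPKM in old GSH-high cells and 11.3 and 9.22 RPKM in young cells (differences -1.23 and -1.61, limma adjusted p = 1.44e-04 and 4.68e-05).

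**Figure D4:**
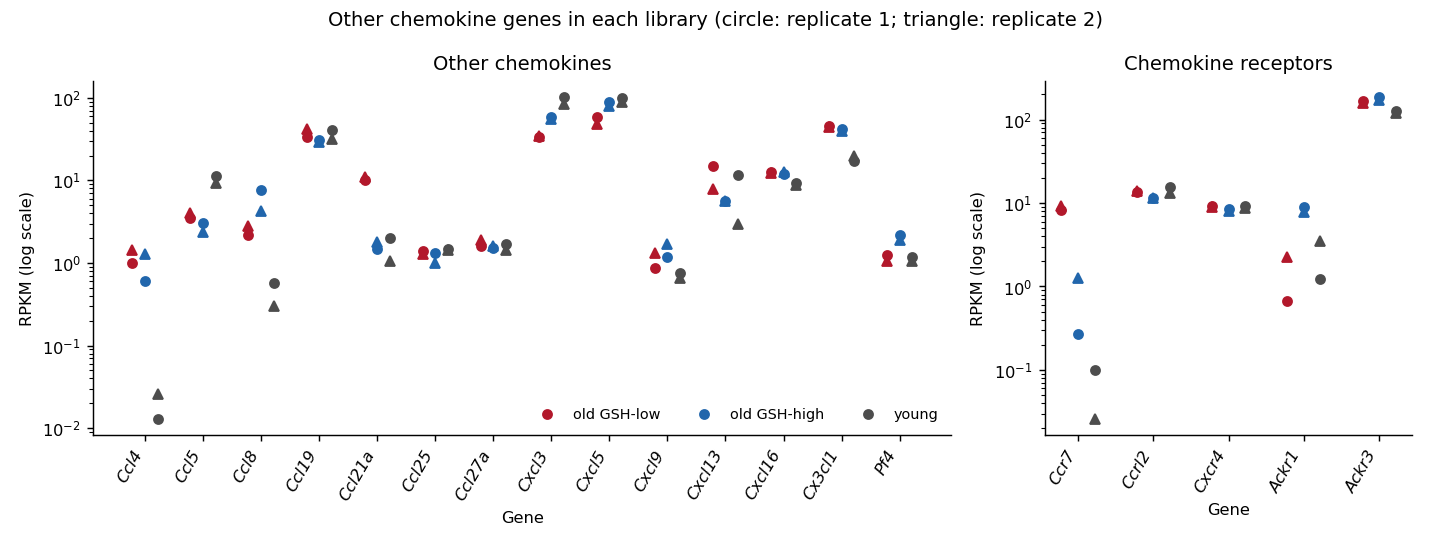
RPKM (vertical axes, log scale) of the 14 other chemokine genes and 5 chemokine receptor genes tested, in each of the 6 libraries; circles are replicate 1 and triangles replicate 2. Cxcl3 falls between 33.8 and 34.6 RPKM in old GSH-low cells, 55.1 and 58.6 RPKM in old GSH-high cells and 84.0 and 102 RPKM in young cells, and Ackr3 exceeds the other 4 receptor genes in every library.

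Of 23 receptor genes, 7 were in the table and 5 were tested. Of these, 1 was higher and 1 lower in GSH-low than in GSH-high old cells, 2 were higher and 1 lower in old GSH-high than in young cells, and 2 were higher and 0 lower in old GSH-low than in young cells. The signalling receptors of Ccl2, Ccl7, Ccl11, Cxcl1, Cxcl2 and Cxcl10 were not analysed here. Both receptors of Cxcl12 were measured. Ackr3, which takes up Cxcl12, had 168 and 158 RPKM in old GSH-low cells, 185 and 172 RPKM in old GSH-high cells and 125 and 119 RPKM in young cells. It was higher than in young cells by 0.41 ± 0.09 in old GSH-low cells (limma adjusted p = 0.00646), a call that ended when GSH-low replicate 1 was omitted (adjusted p = 0.0695), and by 0.55 ± 0.09 in old GSH-high cells (limma adjusted p = 0.00210). Cxcr4, the signalling receptor, had 9.20 and 9.05 RPKM in old GSH-low cells, 8.39 and 8.07 RPKM in old GSH-high cells and 9.27 and 8.62 RPKM in young cells, and no comparison passed (adjusted p from 0.378 to 0.824). Ccr7, the lymphocyte receptor of Ccl21a, had 8.30 and 9.17 RPKM in old GSH-low cells, 0.270 and 1.27 RPKM in old GSH-high cells and 0.0998 and 0.0258 RPKM in young cells, the last from 12 and 3 reads. It was higher in old GSH-low cells than in GSH-high ones by 2.52 ± 0.22 and than in young cells by 3.19 ± 0.22 (limma adjusted p = 2.90e-04 and 1.60e-05). Ccrl2, an atypical receptor that binds chemerin, averaged 13.8 RPKM in old GSH-low cells, 11.3 RPKM in old GSH-high cells and 14.4 RPKM in young cells. Its call as lower in old GSH-high than in young cells (limma adjusted p = 0.0357) ended under 8 alternatives (adjusted p = 0.0610 to 0.162). Ackr1, a chemokine-binding receptor of venular endothelium, averaged 1.45 ± 1.11 RPKM in old GSH-low cells, 8.44 ± 0.78 RPKM in old GSH-high cells and 2.37 ± 1.59 RPKM in young cells (SD, n = 2 libraries). It was higher in old GSH-high than in young cells by 1.57 ± 0.35 (limma adjusted p = 0.0103) and lower in GSH-low than in GSH-high old cells by -2.02 ± 0.35 (limma adjusted p = 0.00988), and both calls ended, with adjusted p of 0.0507 to 0.0550, when 1 of several libraries was left out.

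Among 25 regulators of chemokine transcription, all tested, 7 were higher and 0 lower in GSH-low than in GSH-high old cells, 5 were higher and 4 lower in old GSH-high than in young cells, and 9 were higher and 1 lower in old GSH-low than in young cells. Of all genes tested, 5.38%, 28.8% and 36.8% were called in these comparisons, in the same order. Median log2 differences over the 25 were 0.20, 0.040 and 0.15. Fos, an AP-1 subunit and immediate-early gene, averaged 890 RPKM in old GSH-low cells, 411 RPKM in old GSH-high cells and 951 RPKM in young cells. Between the old fractions it was higher in GSH-low cells by 1.11 ± 0.10 (limma adjusted p = 2.53e-04). Jun, its AP-1 partner, averaged 408 RPKM in old GSH-low cells, 258 RPKM in old GSH-high cells and 370 RPKM in young cells, the order of Cxcl10. Jun was higher in GSH-low than in GSH-high old cells by 0.66 ± 0.09 (limma adjusted p = 0.00334), a call that ended with replicate 2 of the GSH-high fraction omitted (adjusted p = 0.0592). Both were lower in old GSH-high than in young cells, Fos by a log2 difference of -1.20 and Jun by -0.52 (limma adjusted p = 4.88e-05 and 0.00365). The part of this difference in immediate-early genes in the Cxcl10 result was not tested. Cebpd, a C/EBP factor of the acute-phase response, averaged 228 RPKM in old GSH-low cells, 144 RPKM in old GSH-high cells and 129 RPKM in young cells. Cebpd was higher in GSH-low than in GSH-high old cells by 0.66 ± 0.09 (limma adjusted p = 0.00286). Irf7, an interferon-induced factor, was higher than in young cells by 1.35 ± 0.10 in the GSH-low and 1.36 ± 0.10 in the GSH-high fraction (limma adjusted p = 1.74e-05 and 2.68e-05).

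Of 11 genes for the decay of chemokine mRNAs, 1 was higher and 0 lower in GSH-low than in GSH-high old cells, 2 were higher and 2 lower in old GSH-high than in young cells, and 3 were higher and 1 lower in old GSH-low than in young cells. The 1 that differed between the old fractions was Zfp36, or tristetraprolin, which binds AU-rich elements, higher by 0.74 ± 0.09 in GSH-low cells (limma adjusted p = 0.00148). It averaged 185 RPKM in old GSH-low cells, 110 RPKM in old GSH-high cells and 143 RPKM in young cells. Of 20 inducing cytokines and their receptors tested, 1 was higher and 1 lower between the old fractions, 4 were higher and 2 lower in old GSH-high than in young cells, and 4 were higher and 3 lower in old GSH-low than in young cells. Il6, the inflammatory cytokine interleukin-6, was the 1 that was higher between the old fractions, by 1.21 ± 0.11 (limma adjusted p = 2.67e-04). It averaged 185 RPKM in old GSH-low cells, 79.0 RPKM in old GSH-high cells and 17.1 RPKM in young cells, the order of Ccl11. Il6 was higher than in young cells by 3.36 in old GSH-low and by 2.15 in old GSH-high cells (limma adjusted p = 1.64e-07 and 3.77e-06). Lif, a cytokine of the same family, averaged 17.7 RPKM in old GSH-low cells, 14.6 RPKM in old GSH-high cells and 6.31 RPKM in young cells (differences from young cells 1.35 and 1.10, limma adjusted p = 1.89e-04 and 7.74e-04).

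Of 17 genes for chemokine presentation on heparan sulphate and for chemokine cleavage, 2 were higher and 0 lower between the old fractions, 1 was higher and 3 lower in old GSH-high than in young cells, and 5 were higher and 4 lower in old GSH-low than in young cells. Both genes higher in GSH-low cells encode proteases that cleave Cxcl12. Dpp4, a dipeptidyl peptidase that also trims Cxcl10 and Ccl11, averaged 2.84 RPKM in old GSH-low cells, 1.35 RPKM in old GSH-high cells and 0.0635 RPKM in young cells. Dpp4 was higher in GSH-low than in GSH-high old cells by 0.71 ± 0.10 (limma adjusted p = 0.00423). Mmp2, a gelatinase, averaged 211 RPKM in old GSH-low cells, 119 RPKM in old GSH-high cells and 169 RPKM in young cells. Mmp2 was higher in GSH-low than in GSH-high old cells by 0.83 ± 0.10 (limma adjusted p = 0.00188). Dpp4 also marks a subset of fibro-adipogenic progenitors and stands in that marker list.

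Summed markers of some other cell types stood in the same order of groups as some of the chemokines, and those of others did not. Summed levels of the 10 tenocyte markers were 2710 to 3103 RPKM in old GSH-low cells, 671 to 843 RPKM in old GSH-high cells and 102 to 104 RPKM in young cells. This was the order of Ccl7, Ccl11 and Cxcl12. The 14 markers of fibro-adipogenic progenitors, stromal cells of muscle, summed to 1718 to 1853 RPKM in old GSH-low cells, 1203 to 1256 RPKM in old GSH-high cells and 866 to 867 RPKM in young cells, again in that order. Of these 14, 9 were higher and 2 lower in old GSH-low than in young cells, and 10 were higher and 1 lower in old GSH-high than in young cells. Between the old fractions 3 were higher and 2 lower in GSH-low cells, with a median log2 difference of -0.026. The sum was led by Gsn, an actin-severing protein, at means of 903 RPKM in old GSH-low cells, 758 RPKM in old GSH-high cells and 638 RPKM in young cells. Dcn contributed 443 RPKM in old GSH-low cells, 174 RPKM in old GSH-high cells and 15.9 RPKM in young cells. Ly6a, which encodes Sca1, had the opposite order between the fractions, at means of 5.74 RPKM in old GSH-low cells and 26.4 RPKM in old GSH-high cells, and 8.81 RPKM in young cells. Pdgfra, the defining receptor of these progenitors, had 1.62 and 1.01 RPKM in old GSH-low cells, 1.33 and 1.17 RPKM in old GSH-high cells and 0.135 and 0.328 RPKM in young cells, with old fractions that overlapped. The part of tenocyte and progenitor RNA in the chemokine results was not tested.

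The 9 of 12 macrophage and neutrophil markers in the table summed to 66.3 to 69.5 RPKM in old GSH-low cells, 70.7 to 71.4 RPKM in old GSH-high cells and 11.7 to 13.3 RPKM in young cells, higher in old than in young cells, as was Cxcl14. The 6 of 9 lymphocyte markers in the table summed to 15.3 to 18.0 RPKM in old GSH-low cells, 2.52 to 2.94 RPKM in old GSH-high cells and 1.08 to 1.18 RPKM in young cells. Ms4a1 and Cd2 each had a value of 0 among the young libraries, as did Ms4a1 among the old GSH-high ones. Ptprc, which encodes CD45, had 0.588 and 0.559 RPKM in old GSH-low cells, 0.0537 and 0.109 RPKM in old GSH-high cells and at most 0.00279 RPKM in young cells. The 12 endothelial markers summed to 22.5 to 27.8 RPKM in old GSH-low cells, 91.6 to 93.3 RPKM in old GSH-high cells and 41.2 to 47.6 RPKM in young cells, the inverse of the order of Cxcl10. Schwann cell markers summed to 148 to 156 RPKM in old GSH-low cells, 136 to 145 RPKM in old GSH-high cells and 111 to 124 RPKM in young cells. The lymphocyte and Schwann cell sums thus also stood in the order of Ccl7, Ccl11 and Cxcl12. Myofibre markers summed to 59.6 to 61.0 RPKM in old GSH-low cells, 26.4 to 29.4 RPKM in old GSH-high cells and 46.6 to 46.9 RPKM in young cells. Atp2a1 alone had means of 10.9 RPKM in old GSH-low cells, 9.09 RPKM in old GSH-high cells and 24.1 RPKM in young cells. Of the 8 members tested, 1 was higher and 2 lower in old GSH-high than in young cells. In old GSH-low cells, 7 were higher and 0 lower than in old GSH-high cells, and 6 were higher and 1 lower than in young cells. Pericyte and smooth muscle markers summed to 164 to 169 RPKM in old GSH-low cells, 145 to 166 RPKM in old GSH-high cells and 194 to 204 RPKM in young cells. In that sum Acta2, smooth muscle actin, stood at means of 63.7 RPKM in old GSH-low cells, 67.2 RPKM in old GSH-high cells and 133 RPKM in young cells. Against young cells, most of the 9 tested members of this list did not follow the sum. In old GSH-low cells 5 were higher and 2 lower than in young cells, and in old GSH-high cells 6 were higher and 2 lower. Between the old fractions, whose sums overlapped, 5 were higher and 0 lower in GSH-low cells. Pdgfrb, a receptor of pericytes and stromal cells, averaged 12.8 RPKM in old GSH-low cells, 5.59 RPKM in old GSH-high cells and 1.63 RPKM in young cells. This was the order of Ccl7, Ccl11 and Cxcl12. The part of these cell types in the chemokine results was not tested.

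**Figure D5:**
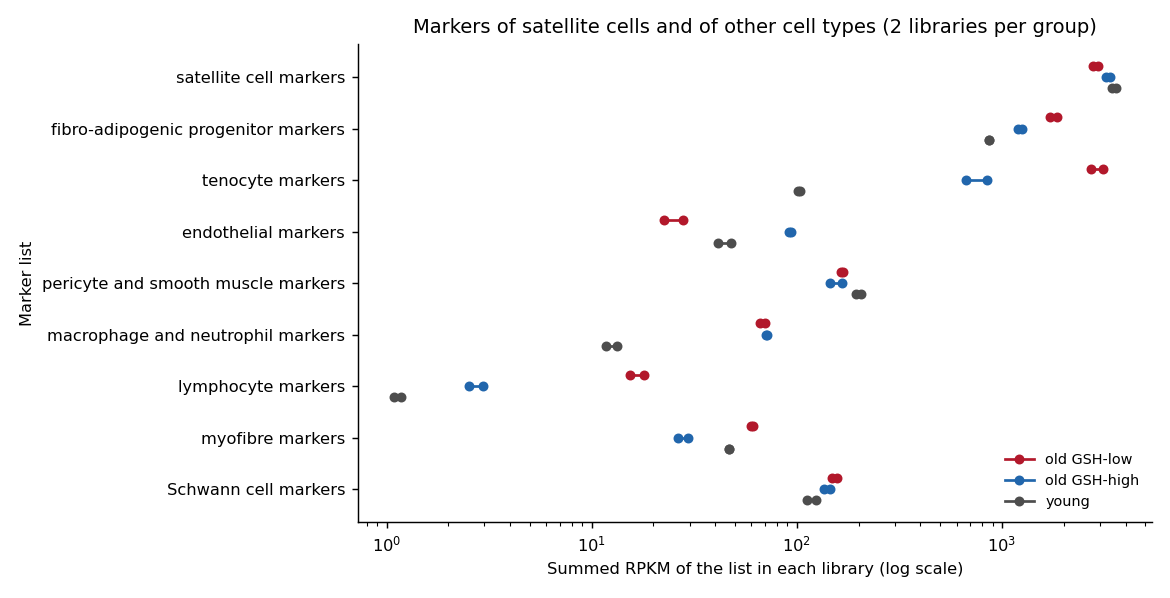
Summed RPKM of each marker list in the 6 libraries (horizontal axis, log scale), with old GSH-low, old GSH-high and young cells from top to bottom within a list and a line joining the 2 libraries of a group. Tenocyte markers sum to 2710 to 3103 RPKM in old GSH-low cells, 671 to 843 RPKM in old GSH-high cells and 102 to 104 RPKM in young cells, and endothelial markers are highest in old GSH-high cells at 91.6 to 93.3 RPKM.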

How the data were processed

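The authors deposited a table of RPKM for 12067 genes in 6 libraries. Per the submitters' processing notes, Trim Galore, STAR, featureCounts of Subread and edgeR were used with GRCm38 (mm10), without versions; the labels' protocols state 68 to 98 M reads per library. Strand handling is not given in the sources used here. The deposited RPKM values are whole reads divided by gene length and scaled library size, so reads per gene were recovered from them with GENCODE M21 exon lengths (whole within 0.02 reads for 11806 genes, 97.8%). No deposited value is 0: those at 0.5 times the smallest other value of their gene were taken as 0 reads.

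The filter kept genes that reached 1 RPKM in 2 libraries or more (10609 tested, 1458 removed). Values of log2(RPKM + 1) were fitted with limma-trend (limma 3.58.1, R 4.3.3) as a model of 3 groups with 3 residual degrees of freedom. Moderated two-sided tests were adjusted by Benjamini-Hochberg over all genes tested, and called under 0.05. The added 1 understates fold changes of low genes. The p-values measure the spread between these libraries only. The labels do not say what the replicate numbers share, so the fit has no block for them.

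The 8 genes and the gene lists were chosen with earlier results of these data known. Named genes were the 8 chemokines, the other chemokines and receptors, up to 3 called genes per other list and comparison in order of p, defining markers and the 3 nearest profiles of each chemokine, of which some are not reported here; Art3, Gsn, Myod1, Acta2 and Sdc4 were named outside this rule, after their values were seen. Alternatives changed the pseudocount (0.1), the filter, the scaling, the tool (limma-voom on recovered reads), the libraries fitted and a replicate block. The fit was tested on simulated data. Promoters came from RefSeq (GRCm38.p6), with entries for 5 of the 8 genes; the table has none for Ccl2, Ccl7 and Ccl11. Scripts used Python 3.11.15 (pandas 2.3.3, numpy 2.4.6, scipy 1.17.1) and figures matplotlib 3.10.9.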

Additional observations from a re-analysis of the deposited data

How the results depend on the processing

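Leaving out 1 library in turn kept the direction and the side of the threshold of the 8 chemokines in 125 of 144 results. A result is 1 gene in 1 comparison of 1 fit. Under the other alternatives 188 of 192 were kept. Direction was fixed in advance where the omitted library lay outside the comparison. Ccl2 between the old fractions thus stayed at 0.36 without young replicate 1 or 2. Replicate blocks and fits of only the compared libraries also leave the fitted difference unchanged, so they bear on the threshold alone. The calls that changed stand beside the genes in the results; their cause was not tested. The number of the 8 called between the old fractions ranged from 2 to 5 over the fits with 1 library left out. Signs turned for 3 uncalled differences. Cxcl14 between the old fractions ranged from -0.35 to 0.11 with 1 library left out, with 0.11 when GSH-high replicate 1 and 0.024 when GSH-low replicate 2 was omitted. Cxcl2 in old GSH-high against young cells ranged from -0.30 to 0.038, with 0.038 in the fit without young replicate 1, and Cxcl1 in old GSH-low against young cells from -0.015, without young replicate 2, to 0.23.

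Over all genes, the calls between the old fractions numbered 571, and 864 when only the 4 old libraries were fitted. With 1 library left out they ranged from 312 to 863 between the old fractions, from 1493 to 3802 for old GSH-high against young cells and from 2068 to 4295 for old GSH-low against young cells. Scaling by library size alone gave 1933 higher and 1124 lower genes in old GSH-high against young cells, beside 1598 and 1453, and no call among the 8 chemokines changed.

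A replicate block gave 479, 2559 and 3350 calls in the 3 comparisons and 4, 5 and 4 of the 8 chemokines, the change being Cxcl10 in old GSH-low against young cells (adjusted p = 0.0578). Deviations from the group means correlated at -0.14 and -0.26 between same-numbered young and old libraries and at 0.069 between the old fractions, and whether the numbers mark shared animals is not known. Crossing the young numbers, an alternative added after seeing the data, gave 800, 3805 and 4538 calls and 4, 5 and 6 of the 8. A count model in edgeR, planned where reads could be recovered, was not run; limma-voom on those reads called 641 genes between the old fractions. With 2 libraries per group, 1 library can decide a call.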
